A study of Homo sapiens with 6 samples.

Results

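The KLF (Krüppel-like factor) genes described here are KLF14 and 9 relatives, KLF2, KLF4, KLF5, KLF6, KLF9, KLF10, KLF11, KLF13 and KLF16. They were chosen by gene name with earlier results of these data known. All 10 were found among the 30015 genes of the deposited table. The study singled out KLF14 partly for its change in this RNA-seq, so the call of KLF14 here is no independent evidence. The libraries came from HMV-II, a human melanoma line of vaginal origin, either carrying the control vector (Vector, genotype WT, n = 3) or with knockdown of EZH2 (shEZH2, n = 3), with no other treatment. In the study's methods the knockdown was made with a lentiviral shRNA under puromycin selection, and the table heads the control group shNC and the knockdown group sh1. The sequenced knockdown group holds 1 shRNA, so an effect of that hairpin other than on EZH2 cannot be told apart from the knockdown.

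KLF proteins are transcription factors that share a C-terminal run of zinc fingers and bind GC-rich boxes and CACCC elements, the same kinds of site that SP1 binds. They differ in their N-terminal parts. KLF9, KLF10, KLF11, KLF13, KLF14 and KLF16 recruit the corepressor SIN3A, while KLF2, KLF4, KLF5 and KLF6 are mostly known as activators that work with acetyltransferases. EZH2 is the catalytic subunit of PRC2, which places the repressive H3K27me3 mark, often at CpG-rich promoters. The study asks about KLF14 as a possible link between EZH2 and SLC7A11, the cystine importer that guards cells from ferroptosis.

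KLF14 is an intronless gene thought to have arisen as a retrocopy of KLF16, and the RefSeq promoters of both were compared because KLF14 rose in shEZH2 cells and KLF16 did not pass the test. The 250 bases before each annotated start, on the strand of the gene, are printed below with their longest identical stretch in capitals. The window of KLF14 is chr7:130734208-130734457 and that of KLF16 is chr19:1863580-1863829, both on the minus strand of GRCh38.
KLF14: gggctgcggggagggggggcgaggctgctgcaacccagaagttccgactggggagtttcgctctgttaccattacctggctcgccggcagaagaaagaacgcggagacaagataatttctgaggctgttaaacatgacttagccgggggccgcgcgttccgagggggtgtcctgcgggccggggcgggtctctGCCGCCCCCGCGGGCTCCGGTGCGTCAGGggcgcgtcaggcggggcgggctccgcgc
KLF16: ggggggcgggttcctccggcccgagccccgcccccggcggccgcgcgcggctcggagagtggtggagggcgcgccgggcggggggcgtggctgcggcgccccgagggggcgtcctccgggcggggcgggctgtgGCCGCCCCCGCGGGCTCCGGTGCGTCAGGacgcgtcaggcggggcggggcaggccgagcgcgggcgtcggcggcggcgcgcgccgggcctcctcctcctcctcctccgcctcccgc

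The shared stretch is 29 bases long and runs from position -57 to -29 before the KLF14 start and from -116 to -88 before the KLF16 start. Among the windows of 27305 genes, those of 0 other genes shared a stretch of that length with KLF14. The longest stretch that KLF14 shared with any other KLF window measured 7 to 10 bases.

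The windows of KLF2, the other member that rose about as much as KLF14, and of KLF9, the member that fell, are shown for contrast. Capitals mark the GC box GGGCGG and the element CACCC on either strand; a base may belong to more than 1 match. The KLF2 window is chr19:16324576-16324825 on the plus strand, and the KLF9 window is chr9:70414658-70414907 on the minus strand of GRCh38.
KLF2: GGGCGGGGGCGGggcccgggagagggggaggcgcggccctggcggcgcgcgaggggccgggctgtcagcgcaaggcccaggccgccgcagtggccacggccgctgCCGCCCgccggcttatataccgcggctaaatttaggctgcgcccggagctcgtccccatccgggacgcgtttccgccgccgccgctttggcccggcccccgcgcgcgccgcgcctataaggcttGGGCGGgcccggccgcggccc
KLF9: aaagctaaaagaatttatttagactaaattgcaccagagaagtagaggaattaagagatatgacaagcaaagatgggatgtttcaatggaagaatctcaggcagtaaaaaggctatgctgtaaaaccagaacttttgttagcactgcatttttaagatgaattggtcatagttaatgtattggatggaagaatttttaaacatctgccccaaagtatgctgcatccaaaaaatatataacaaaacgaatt

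The KLF2 window held 4 GC boxes and 41 CpG dinucleotides, KLF14 held 3 GC boxes and 27 CpG, and KLF16 held 7 GC boxes and 45 CpG. The KLF9 window held 0 GC boxes and 1 CpG, with a GC content of 32.4% against 68.8% for KLF14, 80.0% for KLF2 and 86.4% for KLF16. Of all 35116 RefSeq windows, 42.6% held a GC box and 54.7% held CACCC, and the median window had 11 CpG. CpG-rich windows with GC boxes thus stood before members that rose, such as KLF2, and members that did not pass the test, such as KLF16. RefSeq windows were matched for 9 of the 10 members, all but KLF10, and KLF5 and KLF11 had more than 1. Those of KLF5 held 3 and 27 CpG, so the content of a window depends on the annotated start. The KLF9 values hold for 1 annotated start only.

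The targeted gene was checked first. EZH2 was at 483, 437 and 552 normalized counts in the Vector libraries and at 237, 247 and 225 in the shEZH2 libraries, so the groups did not overlap. Here and throughout, the values of a group are in the order of replicates 1, 2 and 3, and normalized counts are reads per gene divided by a size factor of the library. Depth was 13400290 to 15923029 reads in Vector and 16129171 to 19128939 in shEZH2 libraries. Vector replicate 2 stood apart along gene length, with a median deviation from the other Vector libraries of -0.54 (log2) among the shortest 20% of genes and 0.42 among the longest 20%. Each member's change is therefore also given without it. The melanocyte markers SOX10 and PMEL were high in all 6 libraries, with at least 13186 and 48607 normalized counts. Others were much lower, such as TYRP1 with 257 to 942 and S100A1 with 64.0 to 666. The leukocyte markers came to 9.16 to 32.6 normalized counts in all, and 0 of 4 found in the table reached a mean of 10. Keratinocyte markers summed to 128 to 682, fibroblast markers to 176 to 311 and endothelial markers to 26.5 to 67.5 normalized counts. Of the 10 melanocyte markers, 2 were called higher in shEZH2 cells, TYRP1 (log2 fold change 1.68) and MLANA (0.88), and 1 lower, TYR (-0.97). Of the 2 fibroblast markers tested 1 was called in each direction. At the threshold given below, 7.55% of all genes tested were called higher and 7.07% lower. With single libraries left out, 1 to 4 melanocyte markers were called higher, 1 without Vector replicate 2 or any one shEZH2 library, 3 without Vector replicate 1 and 4 without Vector replicate 3. The lower call among the fibroblast markers was lost without Vector replicate 1 or shEZH2 replicate 2. Their part in the results was not tested.

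Of the 10 KLF genes, KLF14, KLF2 and KLF10 rose in shEZH2 cells, KLF9 fell, and 6 did not pass the threshold. Its cutoffs were those of the study, an unadjusted p under 0.05 and a change beyond 0.585 on the log2 scale either way. The p came from limma here, while the study's methods name DESeq2. KLF14 and KLF2 rose by nearly the same factor, 2.72-fold and 2.74-fold, and KLF9 fell to 0.426 of its Vector level. The same 4 genes had an adjusted p under 0.05 in limma. Over all 15251 genes tested, 7.55% were called higher and 7.07% lower, and 2.28% and 1.84% had an adjusted p under 0.05 in these directions. The member counts include KLF14, which the study had picked on these libraries. The median log2 fold change of the 10 members was 0.11, beside 0.04 for all genes tested.

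**Figure D1:**
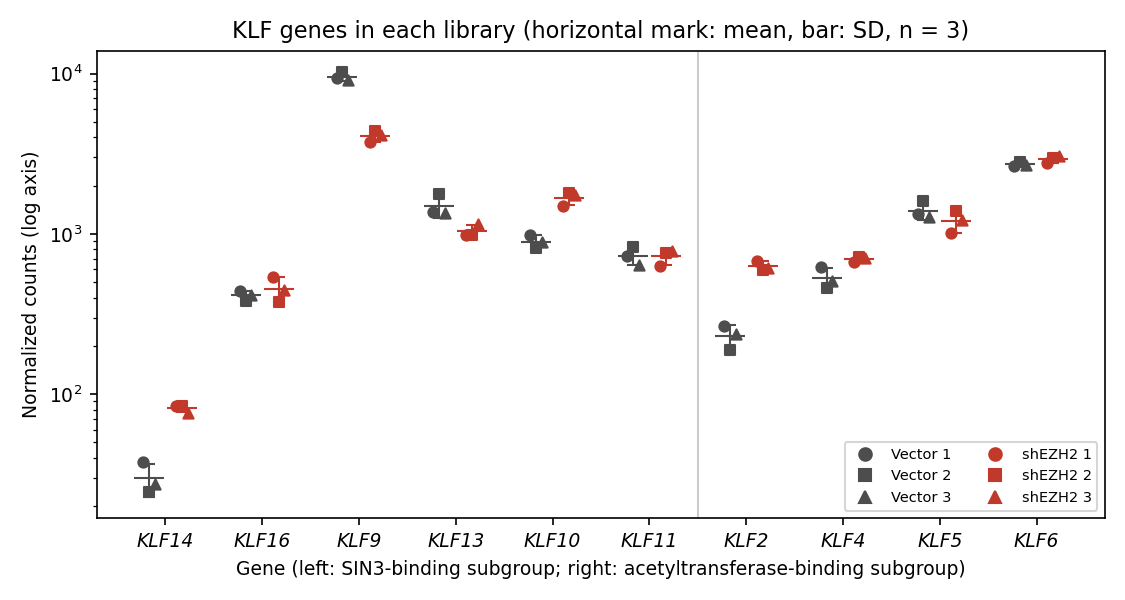
Normalized counts (log axis) of the 10 KLF genes in each library, with the mean and SD of each group (n = 3) and marker shapes for the replicates. KLF14, KLF2 and KLF10 sit higher and KLF9 lower in all 3 shEZH2 libraries (red) than in any Vector library (grey).

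KLF14 is expressed from the maternal copy in many tissues and is known as a regulator of metabolic genes in fat. The deposited table places it (ENSG00000266265) at chr7:130731235-130734176, minus strand, in GRCh38 coordinates. Its normalized counts were 37.6, 24.4 and 27.5 in the Vector and 84.7, 83.8 and 76.4 in the shEZH2 libraries. The lowest shEZH2 library thus stood well above the highest Vector library. The log2 fold change was 1.44 (standard error 0.23, 95% interval 0.91 to 1.98, adjusted p = 0.0212 in limma), and the exact two-sided permutation test gave p = 0.1, the smallest that 3 libraries against 3 allow. These values rest on few reads, 36, 21 and 27 in the Vector and 89, 105 and 80 in the shEZH2 libraries. With a mean of 28.0 reads, counting alone gives an SD of 5.29 reads in the Vector group, where the observed SD was 7.55. Without Vector replicate 2 the log2 fold change was 1.32. In a bulk library, more KLF14 RNA per cell cannot be told apart from more cells that express it.

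KLF16, the closest relative of KLF14 and a SIN3A-binding factor, had 440, 383 and 415 normalized counts in the Vector and 541, 379 and 446 in the shEZH2 libraries. The groups overlapped, since shEZH2 replicate 2 was the lowest of all 6 libraries. The log2 fold change was 0.13 with a 95% interval of -0.26 to 0.52, which leaves out a change as large as that of KLF14. Within each library, the level of KLF14 per kilobase of gene length was 0.0641 to 0.0859 of that of KLF16 in Vector cells and 0.157 to 0.222 in shEZH2 cells. The ratio was higher in 3 of 3 shEZH2 libraries, by 1.35 on the log2 scale (1.27 without Vector replicate 2, exact two-sided permutation test, p = 0.1).

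KLF2, which keeps endothelial cells and T cells quiescent and is induced through the kinase ERK5, was the other strongly raised member. It sits at chr19:16324817-16327874 on the plus strand. Its Vector libraries had 268, 190 and 237 normalized counts and its shEZH2 libraries 681, 599 and 612, without overlap. The log2 fold change was 1.45 (standard error 0.17, 95% interval 1.07 to 1.84, adjusted p = 0.00867 in limma). It was 1.32 without Vector replicate 2.

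KLF2 was also the gene whose pattern over the 6 libraries was closest to that of KLF14. Likeness was measured as the root mean square difference between log2(normalized count + 1) values, each centred on the Vector mean of its gene, over the 11890 genes that averaged 50 or more normalized counts. The difference was 0.0955 for KLF2. It was 0.133 for SLC25A1, the mitochondrial citrate carrier and the next closest gene. Both had their lowest Vector value in replicate 2 and their highest in replicate 1, as KLF14 did. Among the shortest genes, Vector replicate 2 had a median deviation of -0.54, and Vector replicates 1 and 3 had 0.32 and 0.31. KLF2, SLC25A1 and KLF14 are 2018, 2096 and 2942 bases long. Whether gene length gave the shared Vector order was not tested. KLF14 had 36, 21 and 27 reads in the Vector libraries, and counting alone gives an SD of 5.29 reads. Its differences from other genes, and which gene came closest, therefore carry counting error. The 6 libraries fall into 2 groups, so most of the likeness is a like-sized rise.

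**Figure D2:**
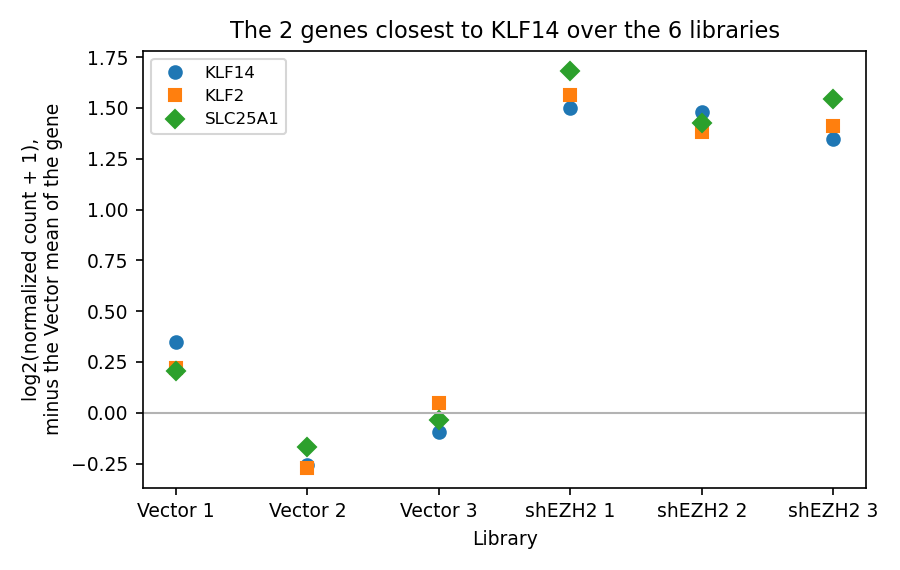
The log2(normalized count + 1) of KLF14 and of the 2 genes closest to it, each minus its own Vector mean, in the 6 libraries. KLF14 and KLF2 lie close together in every library, and SLC25A1 lies above KLF14 in shEZH2 replicates 1 and 3.

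KLF4, one of the reprogramming factors and a close relative of KLF2, moved less. It had 625, 460 and 509 normalized counts in the Vector and 669, 721 and 704 in the shEZH2 libraries. Every shEZH2 library was above every Vector library, but the log2 fold change of 0.40 (95% interval 0.05 to 0.76, adjusted p = 0.174 in limma) fell short of the fold threshold. The level of KLF2 per kilobase was 0.748 to 0.845 of that of KLF4 in Vector libraries and 1.51 to 1.84 of it in shEZH2 libraries. The order of these genes was thus turned around in 3 of 3 shEZH2 libraries (exact two-sided permutation test of the log2 ratio, p = 0.1).

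KLF9, a SIN3A-binding factor that glucocorticoids and thyroid hormone induce, was the highest of the 10 members and fell the most. It sits at chr9:70384597-70414624 on the minus strand. The Vector libraries had 9330, 10239 and 9181 normalized counts, against 3735, 4368 and 4164 in the shEZH2 libraries. The gap between the groups was far wider than the spread within either. The log2 fold change was -1.23 (standard error 0.14, 95% interval -1.55 to -0.91, adjusted p = 0.00805 in limma) and -1.18 without Vector replicate 2. Of the 15251 genes tested, KLF9 ranked 197 from the most lowered.

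KLF13, the relative of KLF9 known for activating CCL5 in T cells, also lay lower. It had 1368, 1779 and 1349 normalized counts in the Vector and 981, 981 and 1159 in the shEZH2 libraries. The groups did not overlap, and the log2 fold change was -0.52 (95% interval -0.89 to -0.15, adjusted p = 0.116 in limma), short of the fold threshold. KLF13 is the longest of the members, at 9409 bases, and was highest in Vector replicate 2. Without that library its log2 fold change was -0.39. With Vector replicate 3 or shEZH2 replicate 3 left out it passed the threshold, at -0.59 and -0.60, which made 2 lower members in place of 1.

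KLF10 and KLF11 are the TGF-beta-inducible early genes, SIN3A-binding factors that repress growth genes. KLF10 stood at 989, 811 and 887 normalized counts in the Vector libraries and at 1499, 1798 and 1761 in the shEZH2 libraries, again without overlap. Its log2 fold change was 0.91 (standard error 0.14, 95% interval 0.58 to 1.25, adjusted p = 0.0203 in limma), and 0.84 without Vector replicate 2. KLF11 had 729, 829 and 640 normalized counts in Vector and 630, 755 and 784 in shEZH2 libraries, and these ranges overlapped almost fully. Its log2 fold change was -0.02, with a 95% interval of -0.38 to 0.35 that lies below the change of KLF10. The ratio of KLF10 to KLF11 per kilobase was 1.12 to 1.59 in Vector and 2.57 to 2.73 in shEZH2 libraries (exact two-sided permutation test of the log2 ratio, p = 0.1).

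KLF5, which drives proliferation in many epithelia, and KLF6, an injury-response factor, did not pass the threshold. KLF5 had 1322, 1597 and 1279 normalized counts in the Vector and 1016, 1392 and 1213 in the shEZH2 libraries. For KLF6 the normalized counts were 2668, 2793 and 2699 in the Vector and 2750, 2963 and 3057 in the shEZH2 libraries. For each of them the groups overlapped. The 95% intervals of the log2 fold change were -0.61 to 0.17 for KLF5 and -0.18 to 0.39 for KLF6, so a 1.5-fold rise lay outside both and a 1.5-fold fall lay just inside that of KLF5.

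**Figure D3:**
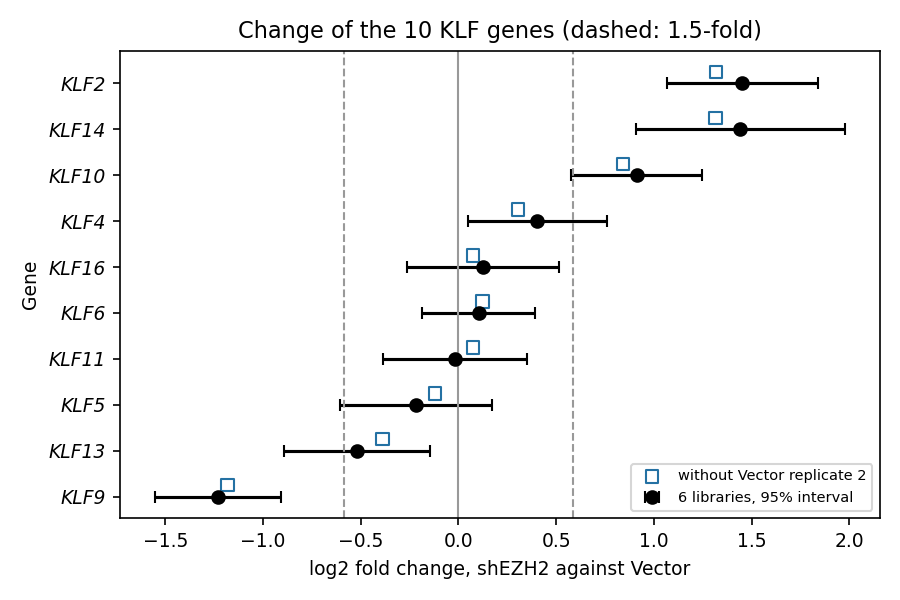
The log2 fold change of each KLF gene in shEZH2 against Vector cells with its 95% interval from limma (n = 3 per group), and the value without Vector replicate 2 as open squares. KLF2, KLF14 and KLF10 lie beyond the 1.5-fold line on the higher side and KLF9 on the lower side, with or without that library.

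Across the SIN3A-binding members, KLF14 and KLF10 rose, KLF9 fell, and KLF11, KLF13 and KLF16 did not pass the threshold. Among the activator members only KLF2 did. In 4 of the 10 members every shEZH2 library was above every Vector library and in 2 every one was below. Over all genes tested this held for 18.4% and 16.5%. KLF14, which the study picked on these libraries, is among the 4. The calls of KLF14, KLF2, KLF10 and KLF9 at the threshold held with each of the 6 libraries left out. Their adjusted p-values did not, since with any shEZH2 library left out all 4 lay above 0.05, up to 0.141 for KLF14, 0.0896 for KLF2, 0.151 for KLF10 and 0.0962 for KLF9. That of KLF14 was also above 0.05 without Vector replicate 3 (0.0737), and that of KLF10 without Vector replicate 1 (0.0549) or Vector replicate 3 (0.0760). No other gene of the table overlaps a member except an antisense RNA at KLF16, which had a mean of 2.17 normalized counts.

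Levels were compared between members as normalized counts per kilobase of gene length. In Vector cells KLF9 had 1852 ± 111 per kilobase (SD, n = 3), far above KLF6 at 443 ± 10.6, KLF5 at 359 ± 44.4 and KLF10 at 224 ± 22.3. KLF11, KLF13, KLF4, KLF16 and KLF2 followed between 159.7 and 115 per kilobase, and the ranges of neighbours in that order overlapped. KLF14 was the lowest, at 10.2 ± 2.35. It stood at the 14.5th percentile of the genes tested.

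In shEZH2 cells KLF9 was still the highest, at 790 ± 62.4 per kilobase. KLF6 at 476 ± 25.6 and KLF10 at 421 ± 40.8 came next with overlapping ranges. KLF2 had moved from position 9 to position 4 of the order, at 312 ± 21.8, and overlapped KLF5 at 310.1 ± 48.3. KLF14 remained the lowest member at 27.8 ± 1.56 per kilobase, at the 29.7th percentile of the genes tested. It was thus still well below KLF13, the next lowest at 111 ± 10.9.

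The summed level of the 10 members per kilobase was 3607 ± 161 in Vector and 2951 ± 150 in shEZH2 cells (SD, n = 3). Without KLF9 the sum moved the other way, from 1755 ± 65.7 to 2161 ± 89.8. KLF9 made up 50.2%, 52.4% and 51.4% of the sum in the Vector and 26.0%, 27.6% and 26.6% in the shEZH2 libraries. KLF10 went from 6.22 ± 0.771% to 14.2 ± 0.677% and KLF2 from 3.20 ± 0.626% to 10.6 ± 1.31%. KLF14 accounted for 0.282 ± 0.0687% in Vector and 0.943 ± 0.0889% in shEZH2 cells. The Vector and shEZH2 libraries did not overlap in any of these shares, and the exact two-sided permutation test gave p = 0.1 for each, the smallest possible here. The shares of a library add up to a whole, so a fall of KLF9 by itself raises the others. Those of KLF6 (12.3% to 16.1%), KLF11 (4.42% to 5.33%), KLF4 and KLF16 also rose without overlap. The counts of KLF6, KLF11 and KLF16 had overlapped. Those of KLF5 and KLF13 overlapped as shares. The shares are therefore no separate evidence of a rise.

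**Figure D4:**
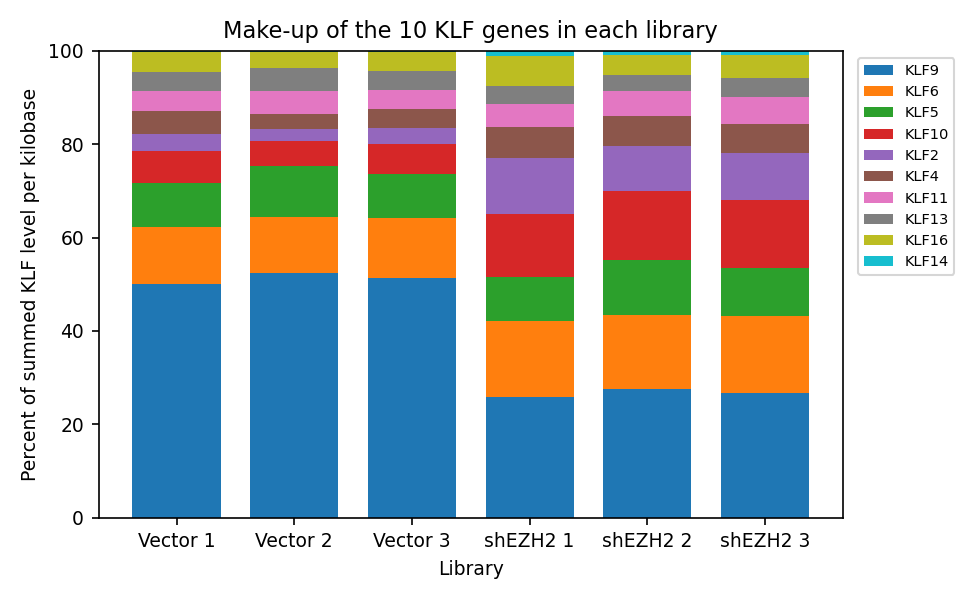
Share of each KLF gene in the summed level of the 10 genes (normalized counts per kilobase) in every library. The share of KLF9 lies between 50.2% and 52.4% in the Vector libraries and between 26.0% and 27.6% in the shEZH2 libraries.

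The remaining KLF genes and the SP genes, which bind the same kinds of site, were counted for comparison. Of the other KLF genes, KLF3, KLF7, KLF12 and KLF15 were tested and 0 of 4 passed the threshold. Among all genes tested, 7.55% were called higher and 7.07% lower. KLF7 came nearest, with a log2 fold change of 0.43 (adjusted p = 0.202 in limma), and passed at 0.61 with Vector replicate 2 left out. Among the SP genes 5 of 9 could be tested and 0 passed, and SP1 itself had a log2 fold change of -0.55 with a 95% interval of -1.13 to 0.02. SP1 was called lower without Vector replicate 1 (-0.66) or Vector replicate 3 (-0.70), and was at -0.30 without Vector replicate 2. Whether the KLF members differ from these genes in how often they change was not tested.

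The partners of KLF proteins mostly stayed short of the threshold. It was passed by 0 of 8 SIN3 and HDAC corepressor genes, 0 of 5 CTBP corepressor genes, 0 of 4 acetyltransferase genes and 0 of 7 ubiquitin ligase genes. For all genes tested the shares were 7.55% higher and 7.07% lower. The median log2 fold changes of these lists were 0.16, 0.10, -0.20 and 0.05, and 0.07, 0.08, -0.07 and 0.09 without Vector replicate 2. SIN3A had a log2 fold change of -0.47, which was -0.22 without Vector replicate 2 and passed at -0.60 without Vector replicate 1. HDAC1 had one of 0.53 and passed without Vector replicate 1 (0.59) or Vector replicate 3 (0.62). SAP30, a SIN3 complex subunit, passed at 1.05 without Vector replicate 1, and the acetyltransferase gene CREBBP at -0.66 without Vector replicate 3. Which corepressor and acetyltransferase genes passed thus depended on single Vector libraries.

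Known inputs to the raised and lowered members were looked at next. The ERK5 and MEF2 genes, which induce KLF2 and KLF4, passed in 0 of 5 tested cases, with values of 0.54 for the upstream kinase gene MAP2K5 and 0.25 for MAPK7, the ERK5 gene, on the log2 fold change scale. MAP2K5 passed at 0.63 without Vector replicate 2, and the factor gene MEF2D at -0.59 without Vector replicate 3. The glucocorticoid receptor and its response genes, listed because KLF9 is such a gene, were called higher in 2 of 6 cases and lower in 0. These were DUSP1, with a log2 fold change of 0.98 (adjusted p = 0.0567), and FKBP5, with 0.59 (adjusted p = 0.129). The shares called over all genes tested were 7.55% higher and 7.07% lower. FKBP5 kept its call only when Vector replicate 2 or shEZH2 replicate 1 was the library left out. The kinase gene SGK1, another of the list, passed at 0.61 without Vector replicate 1 and at 0.60 without Vector replicate 3. NR3C1, the receptor gene, had a log2 fold change of -0.16. The response genes TSC22D3 and PER1 had 0.13 (95% interval -0.33 to 0.59) and 0.0037 (95% interval -0.39 to 0.40), with overlapping groups. A relation of these genes to KLF9 was not tested.

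Among 10 tested TGF-beta ligand, receptor and SMAD genes, 2 were called higher and 1 lower, beside 7.55% and 7.07% over all genes tested. SMAD6, an inhibitory SMAD, had 443, 480 and 404 normalized counts in the Vector and 1234, 1043 and 1178 in the shEZH2 libraries. Its log2 fold change was 1.38, with a standard error of 0.14 and an adjusted p = 0.00607 in limma. TGFBR2 rose by 0.71 (standard error 0.14, adjusted p = 0.0380). TGFBR1 was called lower at -0.63, but not without Vector replicate 2 (-0.39), shEZH2 replicate 1 (-0.53) or shEZH2 replicate 3 (-0.66, where the p alone missed its limit). SMAD7, the other inhibitory SMAD gene, had a log2 fold change of -0.10 with a 95% interval of -0.43 to 0.24.

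A short list of KLF14 targets held SLC7A11, which the study itself proposed and chose on these libraries, and TGFBR2, SPHK1 and PLK4, which were described as targets in other work. The call of SLC7A11 is therefore no independent evidence of a direction. The study's case for SLC7A11 as a KLF14 target rests on other experiments. These were knockdown of KLF14 alone and with EZH2, ChIP-qPCR of KLF14 at the SLC7A11 promoter, and a luciferase reporter of that promoter. They were not examined here. SLC7A11 had 5281, 7443 and 5359 normalized counts in the Vector and 2401, 3446 and 2757 in the shEZH2 libraries, and the groups did not overlap. An antisense gene, SLC7A11-AS1, overlaps 14081 bases of the SLC7A11 gene body, introns included. It had a mean of 94.8 normalized counts in Vector and 38.6 in shEZH2 cells, far below the counts of SLC7A11. Reads of the pair cannot be told apart in shared bases where strand was not used. TGFBR2, described as a gene that KLF14 represses, rose as given above. SPHK1 and PLK4 did not pass, with log2 fold changes of 0.19 (95% interval -0.30 to 0.68) and 0.04 (95% interval -0.37 to 0.44). APOA1 was also on the list but was not found in the deposited table. Of the 4 genes tested, 1 was therefore called higher and 1 lower while KLF14 rose, beside 7.55% and 7.07% over all genes tested.

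KLF14 lies in an imprinted stretch of chromosome 7, together with the imprinted genes MEST and CPA4. CPA4, a carboxypeptidase gene 407 kilobases away at lower coordinates, was almost silent in Vector libraries, with 1, 0 and 1 reads, and had 24, 21 and 25 reads in the shEZH2 libraries. Corrected for depth, the ratio of the summed reads was 29.2 with a 95% exact counting interval of 7.79 to 246, which covers counting error only. MEST, an imprinted hydrolase gene 225 kilobases away, was near silent throughout, with 1 to 6 reads per library, and was not tested. COPG2, a coat protein gene 62.5 kilobases away, had 650 to 760 normalized counts in Vector and 668 to 889 in shEZH2 cells, which overlapped. CEP41, 289 kilobases away, had 267 to 309 in Vector and 331 to 443 in shEZH2 cells. These did not overlap, but its log2 fold change of 0.43 did not pass the threshold.

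On the other side of KLF14 lies the long noncoding RNA gene LINC-PINT, which the table holds under 2 identifiers. The nearer (ENSG00000226380) had 66.9, 119.9 and 47.9 normalized counts in the Vector and 193, 198 and 148 in the shEZH2 libraries. Its log2 fold change was 1.28 (adjusted p = 0.0770 in limma), past the threshold, with no overlap between the groups. The farther (ENSG00000231721) had a log2 fold change of -0.26 and did not pass. A noncoding gene that covers the nearer and nearly all of the farther, AC016831.6, rose from 119 ± 8.17 to 237 ± 7.95 normalized counts (SD, n = 3, log2 fold change 0.99), and was named after its values were seen. It overlaps LINC-PINT on the same strand, so reads of these genes cannot be told apart with certainty. Of the 17 other genes tested within 1 megabase of KLF14, CPA4, the nearer LINC-PINT gene and AC016831.6 were called higher and 0 lower, beside 7.55% and 7.07% over all genes tested. CPA4 reached the minimum mean of 10 only through its shEZH2 libraries and the other 2 may share reads, so nothing is read from this count. PODXL, a sialomucin gene 766 kilobases away, was higher in every shEZH2 library than in any Vector library. It had a log2 fold change of 0.56 and passed without Vector replicate 2 (0.75) or shEZH2 replicate 1 (0.63).

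**Figure D5:**
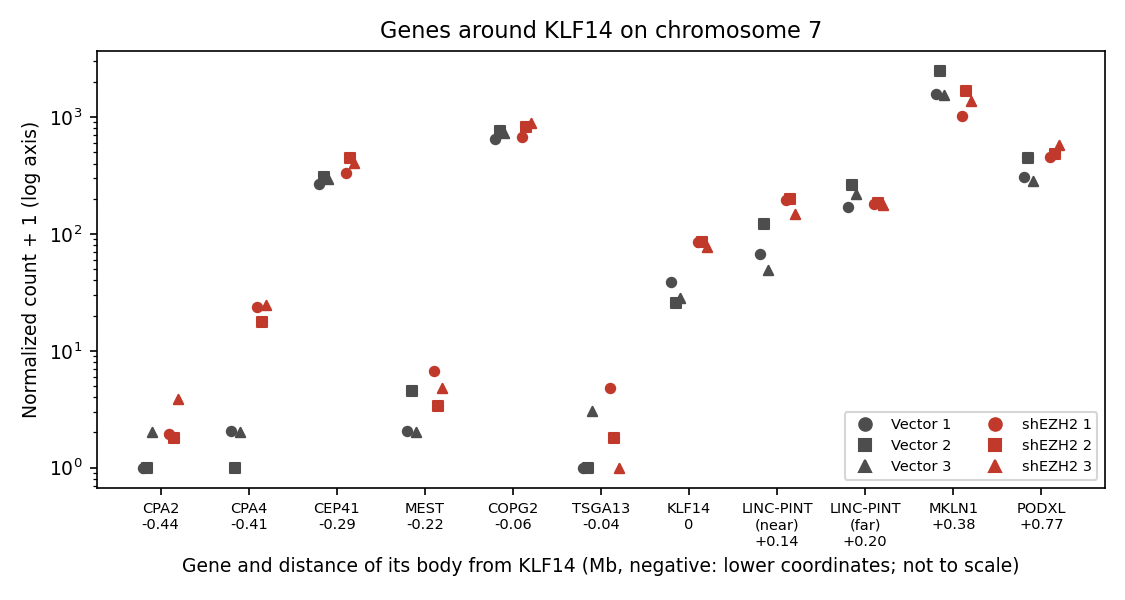
Normalized count plus 1 (log axis) of KLF14 and the listed genes around it on chromosome 7 in each library, ordered by their distance from KLF14 in megabases. CPA4, CEP41, KLF14, the nearer LINC-PINT gene and PODXL are higher in all 3 shEZH2 libraries than in any Vector library. COPG2 at -0.06 megabases overlaps between the groups.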

How the data were processed

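Poly-A RNA of 6 HMV-II libraries was sequenced. The deposited values are signal values, namely reads per gene counted by the authors with featureCounts and divided by a size factor per library (DESeq2 1.20.0 per the labels). The deposited log2 fold changes, p-values and adjusted p-values of the authors' comparison were not used. Besides the counts, the gene names, coordinates, strands, lengths and biotypes were read. The deposited group means served only as a check of the columns. Per-sample columns left unused numbered 0. Dividing by the smallest value of a library gave whole reads for 100% of its values (tolerance 0.01). Gene coordinates are GRCh38, since 47.7% of 20614 genes shared an end with RefSeq on GRCh38 and 0.713% with GRCh37, although the labels name hg19. The aligner and strandedness are not given in the sources used here.

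Genes averaging 10 or more normalized counts were fitted with limma 3.58.1 (R 4.3.3) on log2(normalized count + 1) over all 6 libraries, without a block, with Benjamini-Hochberg adjustment over all genes. Fold changes are on this log2 scale, which understates low genes. Alternatives were DESeq2 1.42.0 and edgeR 4.0.16 on recovered reads, other pseudocounts (0.1 and 5), minimum means and scalings, a replicate block, removal of the gene length trend, array weights, calls on adjusted p or above a log2 fold change of 1, and each library left out. Models were tested on simulated data. The named genes were the 10 members, EZH2, SLC7A11, called genes of the fixed lists and the 3 genes most like KLF14, of which 1 is not reported here; uncalled list genes were named after their values were seen. Members and lists were chosen with earlier results of these data known. Nothing says that replicates came from separate cultures, so p-values measure the spread between these libraries. The ChIP-seq was not analysed here.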

Additional observations from a re-analysis of the deposited data

How the results depend on the processing

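KLF14, KLF2, KLF10 and KLF9 kept their direction and their side of the threshold under all 18 alternative fits, with log2 fold changes of 1.27 to 1.62, 1.24 to 1.56, 0.80 to 0.99 and -1.28 to -1.15. The number of members called higher was 3 under each of them, and also when calls were made on adjusted p. With a log2 fold change above 1 required it was 2, without KLF10, and KLF9 was still called lower. With a library left out, the members called lower numbered 1 to 2. KLF11 was above 0 with array weights (0.19) and ran from -0.11 to 0.078 with a library left out. KLF16 was below 0 with the gene length trend removed (-0.047) and ran from -0.0050 to 0.25 with a library left out. Replicates were not treated as pairs, since the study described no block. Deviations of same-numbered replicates had r = 0.28, 0.22 and -0.11. These values cannot settle pairing, because Vector replicate 3 and shEZH2 replicate 1 had r = 0.25. With a replicate block, the members called stayed at 3 higher and 1 lower, and the adjusted p of KLF14 was 0.0425. The few reads of KLF14 limit the precision of its fold change.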
